A study of Zea mays with 6 samples.

Results

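KNOTTED1 (KN1) regions called in every deposited peak list of maize inflorescence primordia numbered 330, of 43952 merged regions on chromosomes 1 to 10 (0.751%). They were chosen by pooling the peaks of 3 lists, merging peaks that shared at least 1 bp and keeping regions with a peak of each list. Members were therefore selected by the calls themselves. Their presence and peak strength are given as a description with no test. The series holds anti-KN1 chromatin immunoprecipitation sequencing (ChIP-seq) of the inbred line B73, with 2 tassel samples and 1 ear sample, and input DNA for each. All plants grew in the field, and all primordia were fixed for 10 minutes in 1% formaldehyde. Tassel replicate 1 was titled for tassel 1, and tassel replicate 2 for tassels 2 and 3 together. Nothing in the labels says whether tassel samples came from separate plants. Whole dissected primordia were used, so each sample mixes meristem cells with the young organs around them. Chromatin averaged about 400 bp in tassel and 100 bp in ear samples. Selection on a gel for 150 to 350 bp, after 18 PCR cycles, is stated for the ear libraries and not for the tassel ones. Tissue and library preparation therefore cannot be told apart. The lists held 8876 peaks and 87317 tags (tassel replicate 1), 14918 peaks and 165023 tags (tassel replicate 2) and 24737 peaks and 226165 tags (ear), while library depth is unknown. Intervals below are 95% Wilson intervals and cover counting error over regions only, since neighbouring regions are not independent and tags carried no molecular identifier.

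KN1 is the founding member of the KNOX class of plant homeodomain transcription factors. It is made in shoot meristems, is absent from founder cells of new leaves, and is needed to maintain the meristem. In maize it is known to act on hormone pathways, among them gibberellin inactivation, and it binds DNA together with partners of the BELL homeodomain class. The tassel carries the male flowers and the ear the female ones, and the primordia of both consist largely of meristems at this stage. The build behind the coordinates is not given in the labels, so the genes beside the regions and the sequence within them were not analysed here.

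Peak strength across the lists is described first. The deposited score is -10 × log10 of the peak caller's p-value, and each region was given its best scoring peak in each list. The 330 regions held 330, 332 and 350 peaks of tassel replicate 1, tassel replicate 2 and ear. These were 3.73%, 2.23% and 1.42% of the peaks on the numbered chromosomes, and they carried 10.9%, 6.66% and 4.54% of the tags there. In tassel replicate 1 the median region held 9 tags (quartiles 5 to 18, range 3 to 1738). The median was 17 tags for tassel replicate 2 (9 to 30.8, range 4 to 373) and 23 tags for ear (13.2 to 38, range 4 to 149). Peaks outside the 330 regions had medians of 5, 8 and 5 tags in the same order. The fold enrichment over local background had medians of 114, 157 and 41.5 in the 330 regions, against 133, 123 and 24.9 in all other peaks. In tassel replicate 1 the median fold of the 330 regions thus lay below that of the remaining peaks, although the median tag count lay above it.

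In percent of the list, the ear peaks of the 330 regions were placed higher than their tassel peaks, and part of that gap went with the greater length of the ear list. Of the 330 regions, 199 (60.3%) stood in the best 10% of the ear list, 88 (26.7%) in that of tassel replicate 2 and 70 (21.2%) in that of tassel replicate 1, where the peaks of each list give 10.0% by construction. Among the first 887 peaks of each list, a number chosen after the data were seen, the counts were 117 (35.5%) for ear and 70 (21.2%) for each tassel list. These 887 were unlike shares of the lists, which held 8876 (tassel replicate 1), 14918 (tassel replicate 2) and 24737 peaks (ear). The poorest 50% held 31 of the 330 in ear (9.39%), 120 in tassel replicate 2 (36.4%) and 121 in tassel replicate 1 (36.7%). By construction that part holds 50% of the peaks of each list. A score of at least 100 was reached by 270 of the regions (81.8%) in tassel replicate 1, by 299 (90.6%) in tassel replicate 2 and by 270 (81.8%) in ear, beside 75.7%, 89.8% and 25.1% of all peaks. The last deposited column, read as the peak caller's false discovery rate (FDR), was at most 20% in 185 regions (56.1%) of tassel replicate 1, in all 330 of tassel replicate 2 and in 38 (11.5%) of ear, beside 42.4%, 100% and 0.568% of all peaks. In the ear 211 of the 330 regions carried an FDR of 100%, the highest value of that column, and so did most other ear peaks, with lower quartile and median both at 100%. Whether ChIP and input held their proper roles when ear peaks were called could not be checked from the lists, and every ear score, fold and FDR given here carries that limit.

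The best peaks of each list were the ones most often found in all lists. In the best 1% of tassel replicate 1, 28 of 88 peaks (31.8%, interval 23.0 to 42.1) lay in the 330 regions. In tassel replicate 2 they were 42 of 149 (28.2%, 21.6 to 35.9), and in ear 53 of 247 (21.5%, 16.8 to 27.0). Beyond that the share was lower in all lists. In tassel replicate 1 it was 6.76% (4.58 to 9.86) between the best 1% and 5%, 2.03% (1.29 to 3.19) between 80% and 90%, and 3.61% (2.57 to 5.05) in the poorest 10%. In tassel replicate 2 these shares were 3.36% (2.18 to 5.13), 1.34% (0.872 to 2.07) and 2.02% (1.42 to 2.87). In ear they were 8.80% (7.19 to 10.7), 0.324% (0.164 to 0.638) and 0.162% (0.0630 to 0.416). The poorest 10% of both tassel lists thus held a larger share than the band before it, while in ear the share was under 1% in every band beyond the best 20%.

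**Figure D1:**
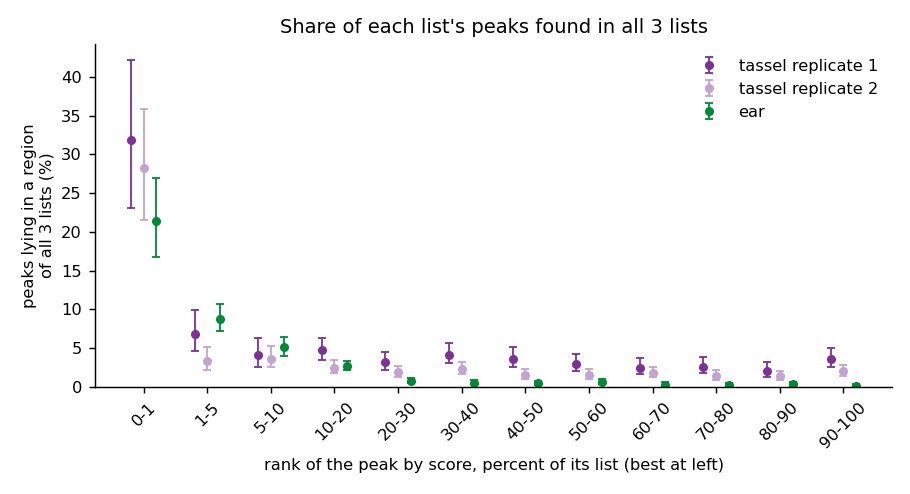
Share of the peaks of each list that lay in regions of all 3 lists (vertical axis, percent) by the rank of the peak in its list (horizontal axis, percent of the list, best at left); points are shares and bars 95% Wilson intervals. The best 1% stand apart in every list, at 31.8% (tassel replicate 1), 28.2% (tassel replicate 2) and 21.5% (ear).

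Regions ranked high in every list were few. In all, 31 of the 330 regions (9.39%, interval 6.70 to 13.0) stood in the best 10% of every list, 24 in the best 5% and 10 in the best 1%. Best 10% of ear alone held 113 regions, of ear and tassel replicate 2 alone 34, of ear and tassel replicate 1 alone 21, and of both tassel lists without ear 7. A further 16 and 11 were in the best 10% of tassel replicate 2 or of tassel replicate 1 alone, and 97 in that of no list. Across the 330 regions Spearman's rho of the scores was 0.28 between the tassel lists, 0.36 between tassel replicate 2 and ear and 0.18 between tassel replicate 1 and ear. Without the 31 regions it was 0.07, 0.23 and 0.03 over 299 regions, and leaving out regions chosen for ranking high in every list lowers each rho by construction. For tags the rho of tassel replicate 1 and ear was 0.05 over all 330. These correlations are over sites of the same 3 libraries, chosen by being called in each, and describe these lists only.

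**Figure D2:**
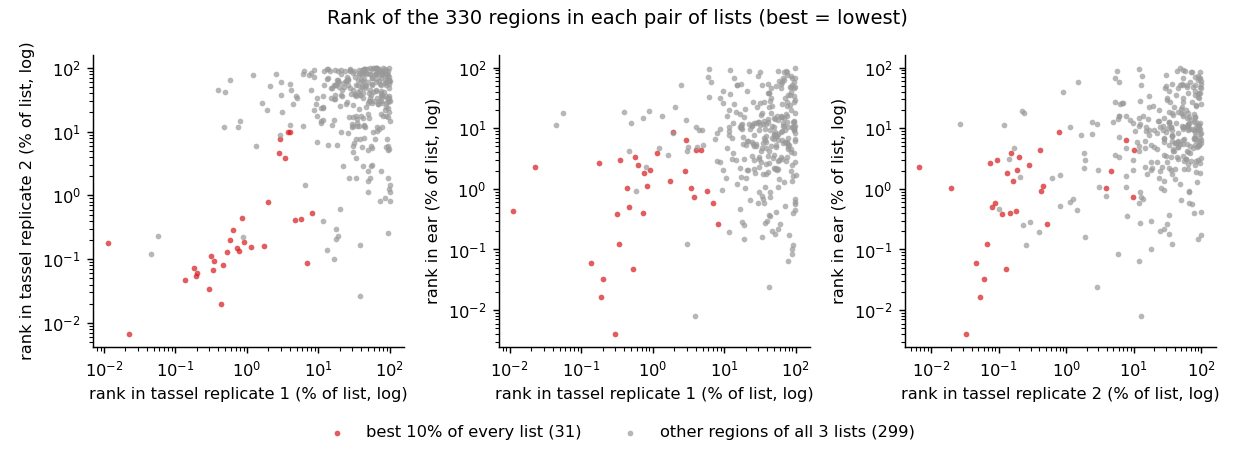
Rank of the 330 regions in each pair of lists (both axes in percent of the list, log scale, best at lower left); red points are the 31 regions in the best 10% of every list and grey points the other 299. Red points lie at the lower left by choice, and most grey ones lie in the poorer 90% of both tassel lists.

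The 31 regions in the best 10% of every list had median tag counts of 89 for tassel replicate 1 (range 18 to 266), 119 for tassel replicate 2 (17 to 373) and 34 for ear (11 to 122). The other 299 regions had medians of 8, 15 and 21. The ear medians of these groups, 34 and 21 tags, lay closer together than the tassel ones. Median fold enrichment was 571, 1387 and 230 in the 31 regions, against 99.6, 134 and 38.5 in the other 299. In both groups these values describe the choice by rank and are no finding.

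The regions are given by their poorest rank over the lists. Tag counts are those of the best scoring peak in tassel replicate 1, tassel replicate 2 and ear, in that order. Since library depth is unknown, they are not compared between lists. The best placed, on chromosome 4 (156340971 to 156342529), held 266, 276 and 74 tags, and its summits spanned 135 bp. The region on chromosome 5 (54214211 to 54215332) held 208, 272 and 79 tags with summits within 98 bp, and 1 on chromosome 8 (9419990 to 9421141) held 198, 271 and 66 tags with summits within 5 bp. All 3 regions were among the first 20 peaks of every list. In both tassel lists they scored 3100, a value that other peaks shared, so tags set their order there. On chromosome 1 (168908320 to 168909508) the tags were 170, 310 and 122, and no other KN1 region of any list lay within 50 kb. On chromosome 2 they were 153, 249 and 59 (48392329 to 48393925) and 164, 158 and 40 (67598953 to 67600101). On chromosome 5 (118614903 to 118616089) they were 132, 111 and 38, again with no other region within 50 kb. All but the region on chromosome 8 lay in the inner 60% of their chromosomes.

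The next regions were all in the best 5% of every list. The region on chromosome 7 (35181738 to 35183253) held 107, 204 and 41 tags, with summits within 2 bp and the nearest other region 82042 bp away. Its neighbour in rank, on the same chromosome (53725811 to 53726992), held 86, 135 and 66 tags with summits spread over 339 bp. The tenth, on chromosome 2 (152196242 to 152197319), held 63, 115 and 48 tags within 17 bp. The ear FDR was above 20% in the second region and in regions 11 to 20. On chromosome 4 (62020370 to 62021676) the tags were 177, 373 and 34, and the fold of 7738 in tassel replicate 2 was the highest among the 330 regions in that list. On chromosome 3 they were 71, 57 and 28 (8626182 to 8627394) and 51, 119 and 23 (38715376 to 38716373). On chromosome 8 (44429413 to 44430927) they were 115, 133 and 28, with summits 546 bp apart at most.

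The ranks 15 to 20 were set by the ear list. The regions were on chromosome 1 (166323014 to 166324516, with 89, 99 and 30 tags), chromosome 9 (47122161 to 47123264, with 141, 119 and 22) and chromosome 5 (140781369 to 140782553, with 95, 67 and 25). They were followed by chromosome 2 (14312711 to 14313888, with 223, 213 and 22), chromosome 8 (94478349 to 94479555, with 152, 176 and 19) and chromosome 1 (77012847 to 77014016, with 103, 133 and 17). The region on chromosome 9 was ranked 2nd and 1st in the tassel lists and 566th in ear. Its tassel scores of 3113 and 3211 stood just above 3100, the upper quartile of the 31 regions in both tassel lists. Peaks that shared the score of 3100 were ordered by tags, and some of them held more tags than this region. The last 3 had summits within 5, 9 and 4 bp although the ear FDR was 69.3%, 81.3% and 90.1%. The remaining 11 of the 31 regions held 18 to 89 tags in tassel replicate 1, 17 to 186 in tassel replicate 2 and 11 to 78 in ear.

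The edges of the called peaks nearly coincided between the tassel lists in the 31 regions and did not in most others. Left edges of the tassel peaks differed by a median of 10 bp (quartiles 3 to 58) and right edges by 31 bp (5.5 to 82.5). In the other 299 regions the medians were 274 and 257 bp, and in the 81 of these wider than 500 bp in both tassel lists they were 121 and 75 bp. Both edges matched within 50 bp in 16 of the 31 regions (51.6%, interval 34.8 to 68.0), against 25 of 299 (8.36%, 5.73 to 12.1) and 16 of those 81 (19.8%, 12.5 to 29.7). The best peak of the ear lay wholly inside both tassel peaks in 26 of the 31 regions, against 32 of the other 299. In the 31 regions tassel replicate 1 reached a median of 299 bp beyond the ear peak on the left (quartiles 269.5 to 310). On the right it reached 299 bp (219 to 309), and tassel replicate 2 reached 300 and 296 bp beyond the ear peak. In the other 299 regions these medians were -28 and -11 bp for tassel replicate 1 and 79 and 112 bp for tassel replicate 2. The 81 of these wider than 500 bp in both tassel lists stood nearer to the 31. Their medians were 215 and 144 bp for tassel replicate 1 and 207 and 231 bp for tassel replicate 2. A negative value is a tassel edge inside the ear peak. The smallest width of a peak was 500 bp in each tassel list and 200 bp in ear, a difference of 150 bp on each side, and the libraries differed in fragment length. The parts of fragment length and of peak width in these distances, and in the count of ear peaks inside both tassel peaks, were not tested.

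**Figure D3:**
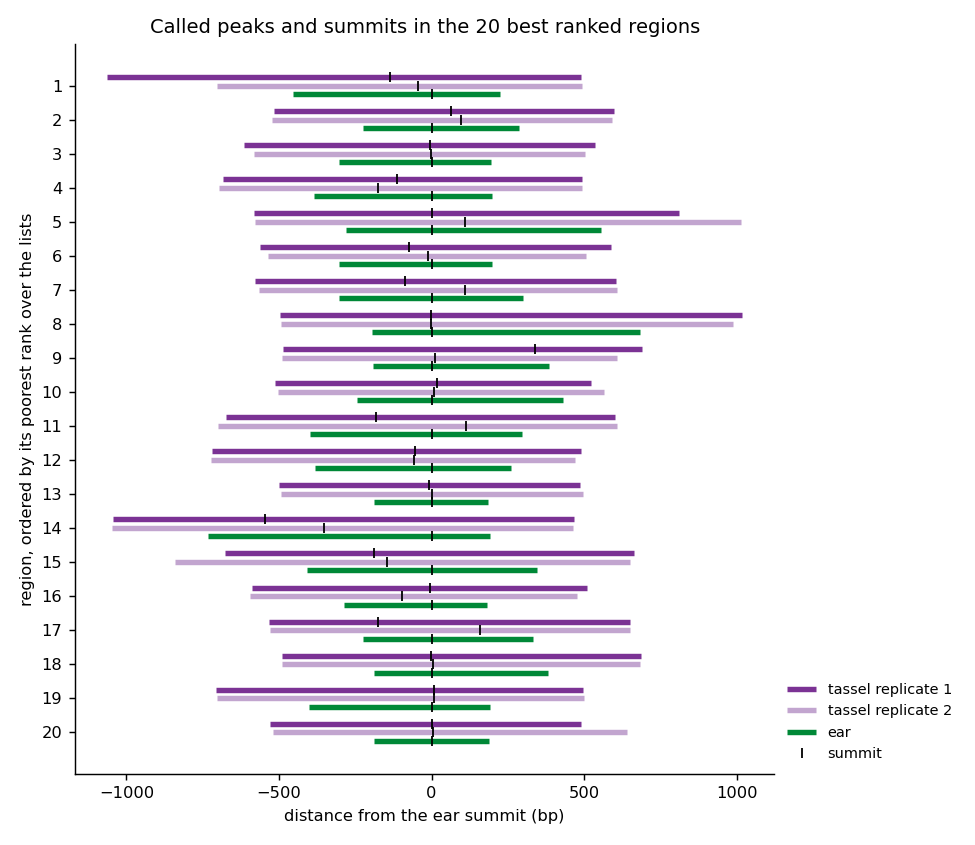
Called peaks (bars) and summits (black ticks) of tassel replicate 1, tassel replicate 2 and ear in the 20 best ranked regions of all 3 lists, one region per row in order of its poorest rank; the horizontal axis is the distance from the ear summit in bp. Tassel bars share their edges in most rows and overhang the shorter ear bar on both sides, and in rows 3, 8, 13, 18, 19 and 20 the 3 summits lie within 9 bp.

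Summits lay closest in the highest ranked regions, a measure that the rule did not use except that overlap limits it. Over all 330 regions the best peaks' 3 summits spanned a median of 282 bp (quartiles 175 to 475, range 2 to 1957). The span was at most 200 bp in 102 regions (30.9%, interval 26.2 to 36.1) and at most 50 bp in 25. In the 31 regions the median span was 98 bp (17.5 to 296), against 296 bp (189 to 489.5) in the other 299, and 21 of 31 (67.7%, 50.1 to 81.4) were within 200 bp, against 81 of 299 (27.1%, 22.4 to 32.4). The median span was 189.5 bp for regions whose poorest rank fell between 10% and 25%, 290 bp between 25% and 50%, 316 bp between 50% and 75%, and 328 bp beyond 75%. The pair with the closest summits was tassel replicate 2 and ear, at a median of 133 bp, with 196 bp between tassel replicate 1 and ear and 221.5 bp between the tassel lists. In the 31 regions all 3 pairs were alike, at 62, 63 and 64 bp.

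Wide and narrow peaks differed in these distances. All peaks of 500 bp in the tassel lists carry the summit at 250 bp, their midpoint. Of the 330 regions, 208 (63.0%) had such a peak in tassel replicate 1 and 85 (25.8%) in tassel replicate 2. Among all peaks on the numbered chromosomes the shares were higher, at 92.2% and 80.2%. Regions wider than 500 bp in both tassel lists numbered 108 and had a median span of 182 bp, against 359 bp in the 71 regions at 500 bp in both. Among those 108, the 27 in the best 10% of every list had a median of 97 bp and the other 81 a median of 202 bp. The 27 regions had median tag counts of 103, 133 and 34 in the lists, against 17, 21 and 23 in the 81. The part of peak width and of tag number in the spans was not tested.

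**Figure D4:**
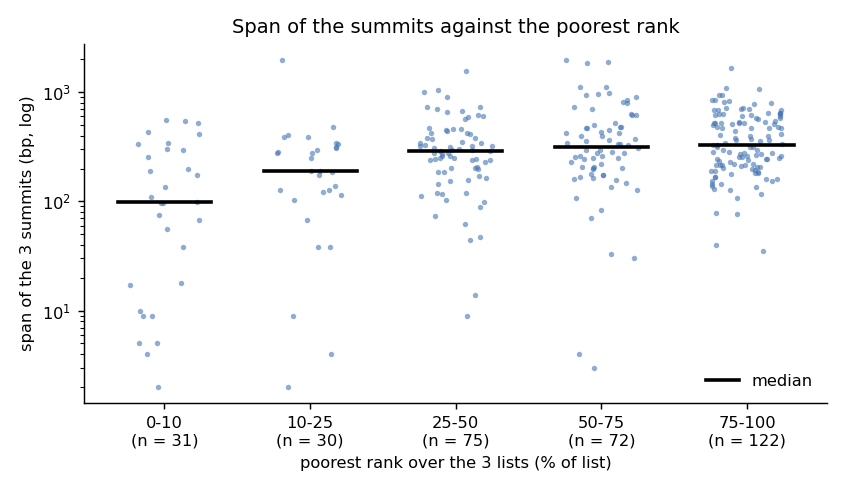
Span of the 3 summits of each region (vertical axis, bp, log scale) by its poorest rank over the lists (horizontal axis, percent of the list); points are the 330 regions, spread sideways at random within a column, and black lines medians. The medians are 98 bp in the first column and 328 bp in the last, and 9 of the 16 spans under 20 bp lie in the first column.

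The 5 narrowest spans, with a tie at 4 bp settled by rank, included the region on chromosome 7 (2 bp) and that on chromosome 1 (4 bp) already given. The others lay on chromosome 4 (187847857 to 187848935, 2 bp, with 28, 52 and 24 tags), chromosome 8 (131317073 to 131318092, 3 bp, with 37, 21 and 8 tags) and chromosome 1 (3566114 to 3567154, 4 bp, with 90, 90 and 8 tags). In the last 2 of these regions the ear peak held 8 tags at an FDR of 100%. Their narrow spans follow from the choice, and the 211 regions with an ear FDR of 100% had a median span of 321 bp.

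Most regions were simple in structure. In 309 of 330 (93.6%) each list contributed 1 peak, 20 held 4 peaks and 1 held 5. A region had a median width of 1102 bp (quartiles 949.5 to 1351.75). Bases covered by all 3 lists were found in 293 regions (88.8%, interval 84.9 to 91.8), with a median over all 330 of 296.5 bp. The 31 regions had a median of 572 such bases, against 273 in the other 299. The remaining 37 regions had no base in every list and were chains, in which a peak bridged 2 others that did not touch. The tassel peaks did not touch in 22 of these, tassel replicate 1 and ear in 13, and tassel replicate 2 and ear in 2. The median tag counts of the chains were 5, 10 and 16 in tassel replicate 1, tassel replicate 2 and ear, against 11, 17 and 23 in regions with a shared base.

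The weakest joins were of a few bp. On chromosome 1 (279186751 to 279188354, holding 5, 17 and 11 tags) 8 bp joined tassel replicate 2 to ear. The other joins were of 10 bp (chromosome 1, 4059908 to 4061259, with 3, 7 and 20 tags), 13 bp (chromosome 1, 203714954 to 203716283, with 7, 13 and 12), 14 bp (chromosome 1, 211472942 to 211474422, with 9, 10 and 29) and 24 bp (chromosome 9, 133625890 to 133626979, with 6, 17 and 8). Just outside the limit stood regions of 2 lists whose gap to the missing list was short. The gaps were 5 bp to an ear peak (chromosome 2, 2549303 to 2550197, holding 13 and 10 tags of the tassel lists) and 5 bp to tassel replicate 1 (chromosome 8, 118422452 to 118422986, with 12 in tassel replicate 2 and 4 in ear). They were 18 bp to tassel replicate 2 (chromosome 8, 937719 to 938579, with 15 in tassel replicate 1 and 9 in ear) and 28 bp to tassel replicate 1 on chromosome 2 (1435105 to 1435728, with 10 and 7 in tassel replicate 2 and ear) and chromosome 8 (162219613 to 162220383, with 32 and 11). Tags ran from 3 to 29 in the 5 regions just inside and from 4 to 32 in the 5 just outside. Of the 3651 regions of 2 lists, 15 lay within 100 bp of a peak of the missing list and 144 within 1000 bp.

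Regions with 2 ear peaks numbered 20, and those with 2 peaks of tassel replicate 2 numbered 2. The pairs of ear summits lay a median of 1025.5 bp apart (range 497 to 1709). The region with 5 peaks was also the widest, at 6974 bp on chromosome 9 (131252262 to 131259235). Its best peaks held 1738, 139 and 9 tags. Here and below, the tags of a second peak of the same list are not included. Its width was nearly that of the peak of tassel replicate 1, 6941 bp, which held the most tags of any best peak in the 330 regions. Regions of 4 peaks were led by chromosome 1 (112640875 to 112642611, with 18, 17 and 44 tags), chromosome 10 (76722354 to 76724625, with 13, 70 and 70) and chromosome 1 (254251935 to 254254621, with 31, 80 and 35, and 40092797 to 40094761, with 24, 20 and 16). Other wide regions were on chromosome 1 (19232841 to 19236188, 3348 bp, with 3, 90 and 127 tags, and 202305250 to 202307948, 2699 bp, with 7, 35 and 117) and chromosome 10 (137827871 to 137830437, 2567 bp, with 3, 39 and 12). In each of these 3 regions the poorest rank was that of tassel replicate 1.

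Limiting the FDR to 20% in every list left 23 regions, of which 9 were among the first 10 above. The other 14 held 5 to 34, 10 to 171 and 40 to 149 tags. On chromosome 8 they were at 162549372 to 162550376 (22, 69 and 78 tags) and 133290251 to 133291156 (20, 24 and 78). On chromosome 10 they were at 49787152 to 49788268 (34, 171 and 40) and in the region of 4 peaks given above. On chromosome 3 they were at 53006989 to 53008297 (17, 76 and 102) and 224927639 to 224928719 (5, 39 and 56). The chromosome 1 ones were the wide region with 117 ear tags and 280379274 to 280380951 (22, 50 and 149). The 149 tags of the latter were the most of any best ear peak in the 330 regions.

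Only 0.568% of all ear peaks reached the FDR limit. Largely by that choice, all 14 of these regions were in the best 1% of the ear list. On chromosome 2 they were at 61289534 to 61291109 (11, 51 and 53 tags), 236465466 to 236466712 (20, 66 and 94), 26137049 to 26138704 (13, 14 and 50) and 216615449 to 216616712 (16, 16 and 91). Chromosome 7 held 3167444 to 3168520 (20, 116 and 100) and chromosome 6 held 107306478 to 107307305 (14, 10 and 53). Across all 23 regions the median counts were 22, 76 and 66 tags, and 15 had summits within 200 bp. Another 15 regions reached 20% in ear but not in tassel replicate 1, with medians of 5, 27 and 71 tags.

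Some regions ranked near the top of a list and near the bottom of another. On chromosome 7 (174515819 to 174517401), the region with the widest gap, the 6 tags of tassel replicate 1 ranked 8850th of 8876, while 84 tags ranked 120th in tassel replicate 2 and 47 ranked 420th in ear. Regions on chromosome 1 (162501678 to 162502770, with 4, 49 and 61 tags) and chromosome 3 (3479396 to 3480467, with 5, 34 and 71) were alike in being weak in tassel replicate 1 only. On chromosome 6 (79824918 to 79826043) both tassel lists were weak, at 6 and 4 tags, and the ear peak of 48 tags had a fold of 753 and ranked 43rd. On chromosome 9 (10092816 to 10094166) the tags were 5, 8 and 70. Over all 330 regions the poorest rank came from tassel replicate 1 in 149, from tassel replicate 2 in 143 and from ear in 38.

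At the other end, 35 regions were in the best 25% of no list and 10 in the best 50% of none. The weakest by best rank were on chromosome 9 (100310069 to 100311499, with 7, 12 and 4 tags), chromosome 2 (9098623 to 9099741, with 3, 4 and 11) and chromosome 5 (49825772 to 49826549, with 4, 4 and 6). They were followed by chromosome 3 (221682472 to 221684049, with 5, 17 and 18) and chromosome 6 (144697756 to 144698973, with 4, 4 and 10). Summits in these 5 regions spanned 278 to 945 bp, and the last had no base in all lists.

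The position of the regions on the chromosomes was not used to choose them. Of the 330, 188 (57.0%, interval 51.6 to 62.2) lay in the outer 40% of their chromosome (20% of the length at each end), beside 48.9% of all regions. Regions of 2 lists were alike in this, at 61.6% (59.9 to 63.3) for tassel replicate 2 and ear, 56.7% (51.8 to 61.5) for tassel replicate 1 and ear and 54.8% (48.5 to 61.0) for both tassel lists, so the share was not particular to the 330. Within the 330 it differed with rank. Of the 31 in the best 10% of every list only 9 (29.0%, 16.1 to 46.6) lay there, against 179 of the other 299 (59.9%, 54.2 to 65.3). The share was 50% (33.2 to 66.8) for a poorest rank between 10% and 25%, 58.7% (47.4 to 69.1) between 25% and 50%, 65.3% (53.8 to 75.2) between 50% and 75% and 59.8% (51.0 to 68.1) beyond. Along the chromosome length, 8 of the 31 regions lay between 20% and 30%, 5 between 30% and 40% and 6 between 50% and 60%. None lay between 40% and 50% or between 70% and 90%, and a count of 0 of 31 allows up to 9.68%. The other 299 regions were fewest between 30% and 40% (8 regions) and most frequent in the last 10% (58). This split by rank was made after the data were seen, and no test is given since regions are not replicates.

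Strong peaks outside the 330 regions were compared with them. Regions in the best 10% of both tassel replicate 2 and ear, without a peak of tassel replicate 1, lay in the outer 40% in 80 of 131 cases (61.1%, interval 52.5 to 69.0). Those in the best 10% of both tassel lists without ear lay there in 8 of 14 (57.1%, 32.6 to 78.6), and those of tassel replicate 1 and ear without tassel replicate 2 in 7 of 10 (70%, 39.7 to 89.2). These last intervals overlap that of the 31 regions (16.1 to 46.6). Outside the 330 regions, the best 10% of tassel replicate 1 lay there in 43.3% of 816 regions, of tassel replicate 2 in 46.1% of 1401 and of ear in 60.8% of 2260. Within the 330 regions the shares for the best 10% were 40% (29.3 to 51.7) of 70 by tassel replicate 1, 45.5% (35.5 to 55.8) of 88 by tassel replicate 2 and 58.3% (51.3 to 64.9) of 199 by ear. In the remaining 90% of each list the shares within the 330 regions were 61.5%, 61.2% and 55.0%, and those outside them 45.9%, 51.2% and 49.6%. Tassel replicate 1 weighed on the value of the 31 regions. Without it, 65 of the 330 regions were in the best 10% of the 2 remaining lists, and 47.7% (36.0 to 59.6) of them lay in the outer 40%. This interval overlaps that of the 131 regions ranked high in the same 2 lists. The 65 are the 31 regions and 34 others, of which 64.7% (47.9 to 78.5) lay in the outer 40%. Without tassel replicate 2 or without ear, the shares were 36.5% and 34.2%.

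**Figure D5:**
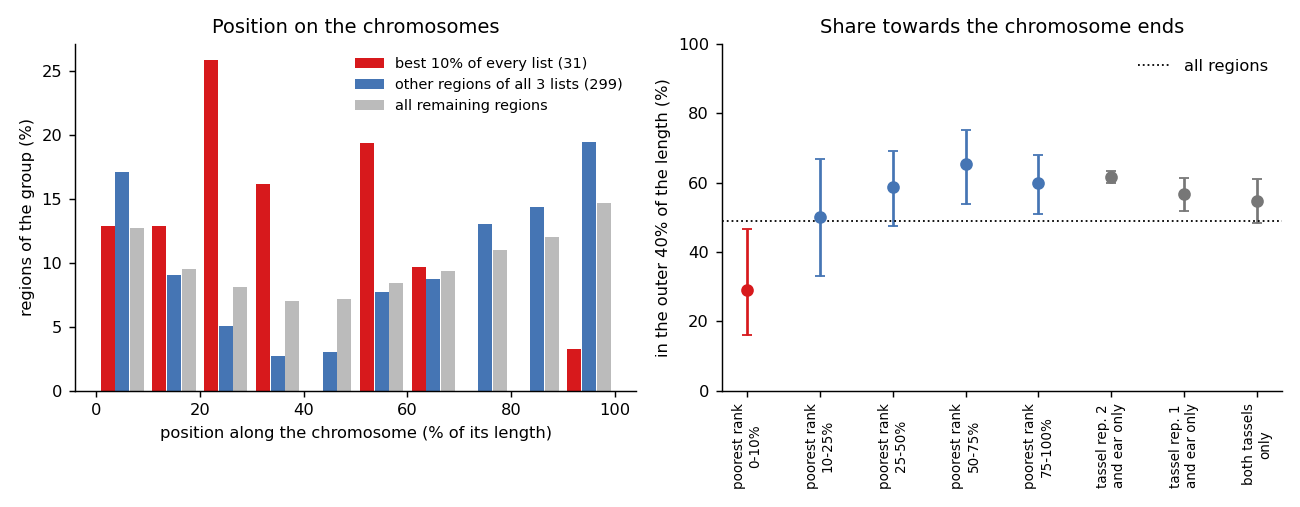
Left, share of the regions of each group (vertical axis, percent) in 10 bins of the chromosome length (horizontal axis, percent), for the 31 regions in the best 10% of every list, the other 299 regions and all remaining regions. Right, share in the outer 40% of the length by poorest rank and for regions of 2 lists only, with 95% Wilson intervals, and the 48.9% of all regions as a dotted line; the first group stands lowest at 29.0%.

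The high ranked regions also had fewer close neighbours than the other 299. The nearest other KN1 region of any list lay within 10 kb in 221 of the 330 regions (67.0%, interval 61.7 to 71.8), beside 54.0% of all regions. It lay within 10 kb in 13 of the 31 regions (41.9%, 26.4 to 59.2), against 208 of the other 299 (69.6%, 64.1 to 74.5), and the median distances were 20763 bp and 3248 bp. No other region lay within 50 kb in 7 of the 31, against 15 of 299. In regions of tassel replicate 2 and ear without tassel replicate 1 the share within 10 kb was 71.1% (69.4 to 72.7). It was 66.0% (61.2 to 70.5) in those of tassel replicate 1 and ear without tassel replicate 2, and 57.7% (51.4 to 63.8) in those of both tassel lists without ear. Among strong peaks outside the 330 regions, some groups had shares like that of the 31 and others had higher ones. The share was 44.1% (40.7 to 47.5) of 816 regions in the best 10% of tassel replicate 1, and 42.9% (21.4 to 67.4) of the 14 in the best 10% of both tassel lists without ear. It was 51.9% (49.3 to 54.5) of 1401 for tassel replicate 2 and 71.2% (69.2 to 73.0) of 2260 for ear. For the best 10% of both tassel replicate 2 and ear, without tassel replicate 1, it was 71.8% (63.5 to 78.8) of 131. For tassel replicate 1 and ear without tassel replicate 2 it was 70% (39.7 to 89.2) of 10. Regions of all lists were denser near the chromosome ends, and the part of position in these distances was not tested.

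The 330 regions seldom lay next to each other. Another of them lay within 10 kb in 4 cases, within 100 kb in 20 and within 1 Mb in 107. The closest pair, 1200 bp apart on chromosome 2, ran from 202416955 to 202418309 (29, 16 and 11 tags) and from 202419510 to 202421336 (36, 11 and 24). The pair on chromosome 3, 6020 bp apart, joined 3471837 to 3473375 (10, 5 and 32) with the region of 71 ear tags given above. Gaps of 13838 bp (chromosome 5, 139962113 to 139963146 and 139976985 to 139978174), 22349 bp (chromosome 2, from 26113800 to 26114699 up to the region of 50 ear tags) and 44903 bp (chromosome 2, from 61243314 to 61244630 up to that of 53 ear tags) followed.

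All 10 chromosomes carried such regions. Chromosome 10 had the most for its length, 22.7 per 100 Mb (34 regions, 1.13% of all regions there), and chromosome 4 the fewest, 11.2 per 100 Mb (27 regions, 0.544%). On chromosome 10 none of the 34 was in the best 10% of every list, beside 9.39% of all 330. A count of 0 taken to allow up to 3 regions gives a bound of 8.82% there. That bound is lower than a Wilson limit (0.909% against 1.15% for 0 of 330), so chromosome 10 is not shown to differ. Chromosome 1 held 8 of the 31 high ranked regions and chromosome 2 held 6. All 8 on chromosome 1 lay in its inner part, while 26 of the other 43 there lay in the outer 40%.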

How the data were processed

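KN1 ChIP-seq peaks of 2 tassel samples and 1 ear sample were analysed, while the 3 inputs were not analysed here. The submitters' processing notes name CASAVA (with version 1.4, which may belong to another tool) and Bowtie. Peak names in the deposited lists are those of MACS. Neither its settings nor the build were found, being not given in the sources used here, and the series' design text names input as the control, although its role in the ear calls was not checked. The lists have no header, so columns were read in the usual MACS order and checked against the values. The deposited score is -10 × log10 of the p-value (no value under 50), the deposited tag counts are whole numbers of ChIP tags per peak, the deposited fold is a ratio over local background, and the deposited percent column was read as the FDR. These are the authors' values for a peak.

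All other values were computed in Python 3.11.15 (scipy 1.17.1, pandas 2.3.3, numpy 2.4.6), and plots with matplotlib 3.10.9. Peaks sharing 1 bp were merged, and each list's best scoring peak (ties by tags) stood for it. Rank is the place by score in percent of the list. The highest peak end stood in for chromosome length. Merging was tested on simulated data (0 differences). Named were the 20 regions with the best poorest rank, those whose FDR was 20% or less throughout, and 5 each by number of peaks, width, rank gap, weakest best rank, narrowest summits, closest pairs, shortest join and shortest gap outside. Members and groups were chosen with earlier results of these data known. No p-value is given, as there is 1 ear list and regions are not replicates. The tags in peaks limit the precision of each list.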

Additional observations from a re-analysis of the deposited data

How the results depend on the processing

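Of 56 alternative values, 32 stayed within the 95% interval of the reported share, or within 1.5 times of the count, and 24 moved. The splits by rank and the ranks at an equal number of peaks were chosen after the data were seen. The count of 330 regions became 212 with a score of at least 100, 209 with lists of equal size, 23 with an FDR of at most 20%, and 547 to 3343 with 1 list left out, where a region needs only 2 lists. The share in the outer 40% (57.0%) became 39.1% with the FDR limit and 29.0% in the 31 regions strong in every list, and 34.5% of regions lay in the outer 20%, beside 27.4% of all regions. It ranged from 55.9% to 61.2% with 1 list left out. The share with summits within 200 bp (30.9%) was 36.2% where peaks had to overlap by 50% of the shorter one, 37.8% with windows around summits, 65.2% with the FDR limit, and 47.0% to 62.4% with 1 list left out, where the span is over 2 summits. The share with another region within 10 kb (67.0%) became 44.3% with the score limit, 43.5% at equal sizes, 39.1% with the FDR limit, 41.9% in the 31 regions, and 44.1% to 66.1% with 1 list left out; fewer peaks leave fewer neighbours. The outer share of the strong regions (29.0%) ranged from 34.2% to 47.7% with 1 list left out of the ranking. It was 20.8% for the best 5%, 35.8% for the best 20%, 37.0% by tags and 29.4% by fold. No paired analysis was possible because there is 1 ear list and no result comes from a test. Among the first 887 peaks of each list the share was 35.5% in ear (60.3% in its best 10%) and 21.2% in tassel replicate 2 (26.7%). Library depth is unknown, so a region missing from a list is not shown to be unbound there.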
